A study of Rattus norvegicus with 54 samples.

Results

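Within the nucleus accumbens RNA-seq of 54 Long Evans rats, 13 libraries with the highest and 13 with the lowest expression of neuronal activity genes were compared. The libraries were chosen by their own readout. Each received an activity score, the mean over Fos, Egr2 and Npas4 of log2(CPM + 1), where CPM is the count of a gene scaled to the total count of its library, and the 13 highest and 13 lowest of the 54 scores were selected on it. The high libraries had scores of 3.78 to 4.72 and the low libraries 2.31 to 2.91, with 28 libraries between. The selection left little room at its edges: the nearest library outside scored 3.77 on the high side, against 3.78 just inside, and 2.92 on the low side, against 2.91. The differences in Fos, Egr2 and Npas4 that follow from this choice are a description, and so is any difference between the high and the low libraries. Tests cover the score between study groups, all 54 libraries with the score as a continuous term, and the 28 libraries between. The continuous fit leaves out no library, but its score is the one that ranked them, and it contains the 26 chosen libraries. The 28 were set apart by the same ranking, as its middle scores.

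The study exposed rats before birth to a free-choice liquid control diet (FCL) or to ethanol (PAE), and in adolescence to water (VEH) or to ethanol (AAE). Males and females were sampled 24 h after adolescent dosing ended (postnatal day 42, P42) or as adults at P90 with no challenge. The younger rats were FCL-VEH or PAE-VEH and the adults FCL-VEH or PAE-AAE, so that prenatal and adolescent ethanol cannot be told apart in adults. FCL-VEH rats are called controls here, and replicates are numbered by order of deposition within a group. The labels used here name no stimulus, task or time of day for the libraries. They do not state that the rats of a group came from separate litters, so that p-values measure the spread between these samples.

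Immediate early genes are transcribed within minutes of calcium entry into a firing neuron, from promoters that already carry bound factors such as CREB and the serum response factor, and need no new protein. Fos pairs with Jun proteins into the AP-1 transcription factor, Egr2 is a zinc finger factor and Npas4 is a neuron-restricted factor induced by calcium influx. In the accumbens, whose principal cells are the D1 and D2 receptor spiny projection neurons, such genes are widely used as markers of recently active cells.

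Library depth was 59.1 to 103.8 M counts (median 72.5 M). The tissue carried its defining spiny neuron markers: Ppp1r1b (DARPP-32) stood at 1081 to 1972 CPM in the high libraries and 541 to 2265 CPM in the low ones. One low library stood apart, control female P90 replicate 1, which had the lowest shared spiny neuron score of the 54 (-1.46, where each score is a mean log2 level about the average library). The main results are given with and without it. In 4 libraries, 3 of them low and 1 between, Xist and the Y-linked Kdm5d went against the labelled sex.

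The sequences shown first are those near which the clearest results lie. Among the 9 genes called on the score whichever of the 54 libraries was left out was a long non-coding RNA, LOC120095261 (gene ID 120095261), transcribed from chr10:60522142-60523741 on the plus strand of GRCr8. It starts 8 bases after the end of the Mir132 hairpin, and Mir212 lies 182 bases before Mir132 on the same strand. Both encode microRNAs with a shared seed, in capitals (bases 2 to 8 of the mature sequence, RefSeq, GRCr8):
miR-132-3p: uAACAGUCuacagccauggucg
miR-212-3p: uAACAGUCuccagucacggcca

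Promoters of 1 selecting gene and of 5 genes that followed the score are given as 300 bases each, from 250 before to 50 after the start site in RefSeq GRCr8. They are Egr2 (chr20:21054392-21054691, minus strand), Junb (chr19:40080876-40081175, plus), Dusp1 (chr10:17184603-17184902, plus), Nr4a1 (chr7:134259888-134260187, plus), Egr4 (chr4:119607768-119608067, minus) and LOC120095261 (chr10:60521892-60522191, plus), all read along the gene's strand. The letters in capitals mark the full cyclic AMP response element (CRE) TGACGTCA, its core TGACG or the reverse complement CGTCA where no full site covers it, and the CArG box of the serum response factor.
Egr2: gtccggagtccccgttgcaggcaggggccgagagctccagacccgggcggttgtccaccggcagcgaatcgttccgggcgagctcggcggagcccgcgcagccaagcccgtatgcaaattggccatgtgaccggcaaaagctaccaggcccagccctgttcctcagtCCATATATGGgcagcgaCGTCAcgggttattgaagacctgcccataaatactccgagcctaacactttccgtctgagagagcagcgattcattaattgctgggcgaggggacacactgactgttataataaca
Junb: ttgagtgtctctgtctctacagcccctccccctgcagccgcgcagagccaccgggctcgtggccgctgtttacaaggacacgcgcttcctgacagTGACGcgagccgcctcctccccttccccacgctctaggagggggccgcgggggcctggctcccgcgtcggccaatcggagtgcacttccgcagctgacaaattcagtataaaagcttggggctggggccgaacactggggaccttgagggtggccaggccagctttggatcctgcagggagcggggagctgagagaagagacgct
Dusp1: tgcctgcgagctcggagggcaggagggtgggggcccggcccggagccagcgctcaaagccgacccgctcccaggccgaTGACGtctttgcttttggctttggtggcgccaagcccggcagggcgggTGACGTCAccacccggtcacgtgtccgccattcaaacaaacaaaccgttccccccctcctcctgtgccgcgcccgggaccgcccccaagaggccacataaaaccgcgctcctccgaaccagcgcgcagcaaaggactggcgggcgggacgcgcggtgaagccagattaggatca
Nr4a1: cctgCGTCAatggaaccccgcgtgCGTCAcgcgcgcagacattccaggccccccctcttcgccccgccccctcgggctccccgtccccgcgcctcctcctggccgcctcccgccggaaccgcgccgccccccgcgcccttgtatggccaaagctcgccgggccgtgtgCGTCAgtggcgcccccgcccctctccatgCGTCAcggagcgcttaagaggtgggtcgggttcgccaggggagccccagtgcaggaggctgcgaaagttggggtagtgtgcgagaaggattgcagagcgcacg
Egr4: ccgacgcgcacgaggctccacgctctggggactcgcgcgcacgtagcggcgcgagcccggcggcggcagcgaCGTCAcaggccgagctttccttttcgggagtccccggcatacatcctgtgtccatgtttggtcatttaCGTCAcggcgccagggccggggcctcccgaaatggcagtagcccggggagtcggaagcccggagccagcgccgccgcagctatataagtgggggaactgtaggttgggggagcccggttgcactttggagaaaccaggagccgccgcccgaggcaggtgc
LOC120095261: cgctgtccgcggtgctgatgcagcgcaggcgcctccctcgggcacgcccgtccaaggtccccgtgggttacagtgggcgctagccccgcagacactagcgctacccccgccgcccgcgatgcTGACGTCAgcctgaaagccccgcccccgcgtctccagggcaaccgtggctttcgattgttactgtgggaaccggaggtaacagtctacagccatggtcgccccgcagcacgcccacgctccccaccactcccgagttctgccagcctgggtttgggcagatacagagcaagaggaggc

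A full CRE stood in the promoters of Dusp1 and of LOC120095261 and, not shown, of Btg2 and Ier2, against 1.83% of all 33469 promoters of this length in the table. In the latter window the CRE precedes the Mir132 hairpin, which the window contains. The CArG box was found in Egr2 and, not shown, in Egr1, against 1.64% of all promoters. In both genes a CArG box began 83 bases before the start site and a core 66 bases before it. Cores outside a full CRE were in Egr2, Junb, Dusp1, Nr4a1, Egr4, Sik1 and Egr1, against 20% of all promoters. Of the 8 promoters present in the table for those 9 genes, 7 held at least 1 of these motifs, against 22.6% of all, and Fosb held none in this window. Btg2 and Ier2 are not among those 9 genes, and Ier2 was not called on the score. The windows of Npas4, a selecting gene, and of Per1 were also searched and held none of these motifs. The motifs are matches of letters on either strand, and the genes were chosen by their values.

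The selecting genes themselves spanned the following ranges. Fos, whose ranges did not overlap, stood at 4.09 to 6.79 CPM (median 5.50) in the low libraries and 9.18 to 25.2 CPM (median 18.2) in the high ones. Egr2 stood at 2.45 to 8.62 CPM (median 4.99) and 8.18 to 26.1 CPM (median 15.3), and Npas4 at 3.01 to 13.1 CPM (median 5.83) and 9.64 to 40.7 CPM (median 19.6). The ranges of Npas4 overlapped, as did those of Egr2. Scoring on Fos and Egr2 alone, without Npas4, kept 10 of the 13 high and 11 of the 13 low libraries. Without Fos it kept 13 and 10, and without Egr2 10 and 10.

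High and low libraries were spread unevenly over the study groups. Of the 13 high libraries 11 were P90 and 8 were labelled female, and of the 13 low ones 11 were P42 and 9 were labelled male. PAE-AAE adults gave 6 high and 0 low libraries, of 11, while PAE-VEH males at P42 gave 0 high and 5 low, of 9. The score itself did not pass in any of the 6 comparisons tested, each between groups of the same labelled sex. Without the libraries whose sex markers go against their label, none of the 6 passed or turned in sign. All 6 differences were above 0, taken as P90 minus P42 or as ethanol minus control. Over all libraries the score was not tested by age or by sex. In control males it was 3.53 ± 0.68 (SD, n = 6) at P90 and 3.01 ± 0.46 (SD, n = 9) at P42, a difference of 0.52 (exact two-sided permutation p = 0.1, adjusted p = 0.343 over 6 comparisons). In control females it was 3.55 ± 0.72 (SD, n = 8) and 3.13 ± 0.41 (SD, n = 7) (difference 0.42, exact permutation p = 0.198, adjusted p = 0.343).

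Ethanol groups were compared with controls of the same sex and age. PAE-AAE females at P90 scored 3.97 ± 0.24 (SD, n = 5) against 3.55 ± 0.72 (SD, n = 8), a difference of 0.43 (exact permutation p = 0.228, adjusted p = 0.343), with 5 of 5 above the control median. Without control female P90 replicate 1 the difference was 0.26, and without replicate 6 it was 0.60. PAE-VEH females at P42 scored 3.54 ± 0.47 (SD, n = 4) against 3.13 ± 0.41 (SD, n = 7) (difference 0.41, exact permutation p = 0.158, adjusted p = 0.343). In males the differences were smaller, 0.13 at P90 (exact permutation p = 0.732, adjusted p = 0.878) and 0.02 at P42 (exact permutation p = 0.915, adjusted p = 0.915). The spread inside single groups was wide: control females at P90 held the library with the highest score of all (4.72) and also the one that stood apart (2.39).

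**Figure D1:**
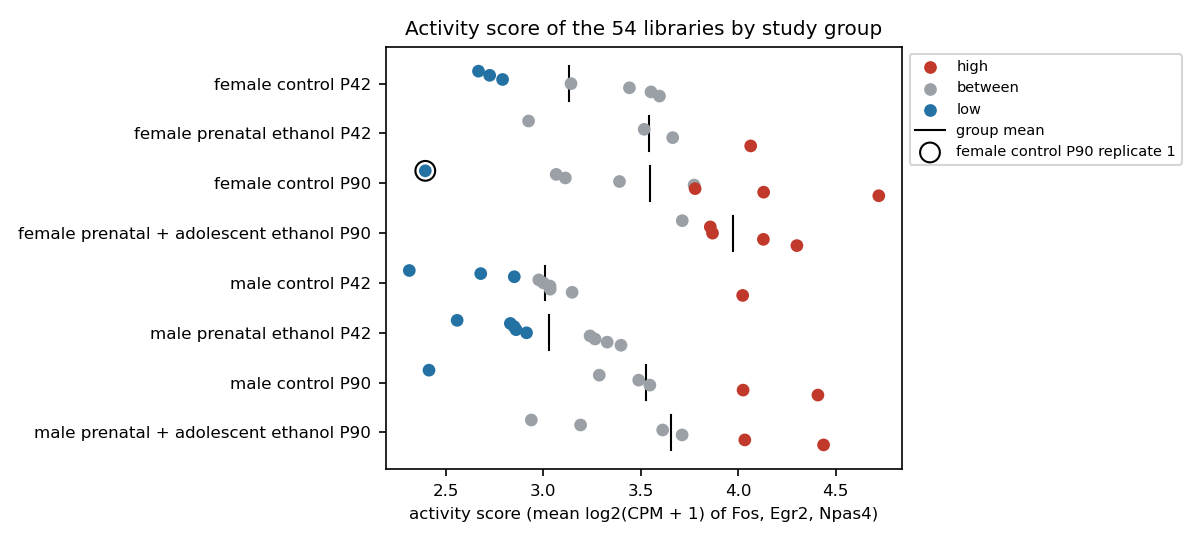
Activity score (horizontal axis, mean log2(CPM + 1) of Fos, Egr2 and Npas4) of each of the 54 libraries by study group, coloured by whether the library was among the 13 highest, the 13 lowest or between, with group means as vertical lines. Only the control females at P90, control males at P42 and control males at P90 hold both high and low libraries, and the ringed library is control female P90 replicate 1 at 2.39.

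Among the rapid transcription factors, Junb is an AP-1 partner of Fos. It stood at 25.8 to 53.5 CPM (median 37.3) in the low libraries and 62.1 to 100.2 CPM (median 75.7) in the high ones, with no overlap, and at 38.2 to 84.6 CPM (median 52.0) in those between. Egr4 stood at 13.7 to 29.6 CPM (median 22.1) and 31.0 to 72.1 CPM (median 40.5), and Fosb at 3.77 to 6.39 CPM (median 4.80) and 7.78 to 14.7 CPM (median 11.8), again without overlap. Egr4 is a zinc finger relative of Egr2, and Fosb encodes an AP-1 subunit whose truncated form, deltaFosB, accumulates in the accumbens with repeated stimulation. With LOC120095261 these were the only 4 of 28557 tested genes, the selecting genes left out, whose 13 high libraries all lay above the 13 low ones (0.014%), and 0 genes (0%) had all high libraries below. This count belongs to the contrast that chose the libraries. CPM values here and below are not adjusted for study group, and 11 of 13 high libraries were P90 while 11 of 13 low ones were P42. In the libraries between, Fosb stood at 3.65 to 7.95 CPM at P42 and 7.22 to 14.9 CPM at P90. Its log2 difference was 1.18 with no group term and 0.87 in the groups that hold both levels. These were 0.96 and 0.87 for Junb, 0.86 and 0.87 for Egr4, and 1.06 and 1.17 for LOC120095261.

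Nr4a1 (Nur77), an orphan nuclear receptor, stood at 19.7 to 63.7 CPM (median 30.9) in the low and 49.2 to 101.4 CPM (median 79.1) in the high libraries, with 8 of 13 high libraries above every low one. Egr1 (Zif268), a zinc finger factor like Egr2, stood at 48.8 to 161 CPM (median 103) and 128 to 258 CPM (median 174.7), and its lowest low value belonged to control female P90 replicate 1. The next lowest low library of Egr1 in the groups that hold both levels was control male P90 replicate 4 at 90.9 CPM. Arc, which acts at synapses in the trafficking of AMPA receptors, ranged from 14.2 to 61.1 CPM (median 28.9) to 48.3 to 97.7 CPM (median 73.3), with 9 of 13 high libraries above every low one. Dusp1, a phosphatase that switches off MAP kinases, stood at 12.5 to 22.3 CPM (median 16.1) and 17.9 to 38.2 CPM (median 31.4). Sik1, a kinase that restrains CREB coactivators, stood at 11.4 to 18.4 CPM (median 14.5) and 13.8 to 22.3 CPM (median 20.5), the narrowest separation of these genes.

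Inside single groups the values are likewise a description of the chosen libraries. Among control females at P90, Arc was at 14.2 CPM in the low library, replicate 1, and at 57.3, 73.3 and 97.7 CPM in the high replicates 5, 4 and 6. Among control males at P90 it was at 24.7 CPM in the low replicate 4 and at 71.9 and 82.1 CPM in the high replicates 1 and 3. Among control males at P42 it was at 24.5, 34.8 and 27.8 CPM in the low replicates 4, 2 and 8 and at 64.5 CPM in the high replicate 7. Each high library of these 3 groups thus exceeded each low library of its own group. Junb had the same order, which its ranges without overlap had already fixed. It stood at 42.0 CPM against 69.3 to 100.2 CPM in control females at P90. In control males it stood at 34.6 against 75.7 and 78.6 CPM at P90, and at 31.9 to 39.7 against 62.1 CPM at P42.

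**Figure D2:**
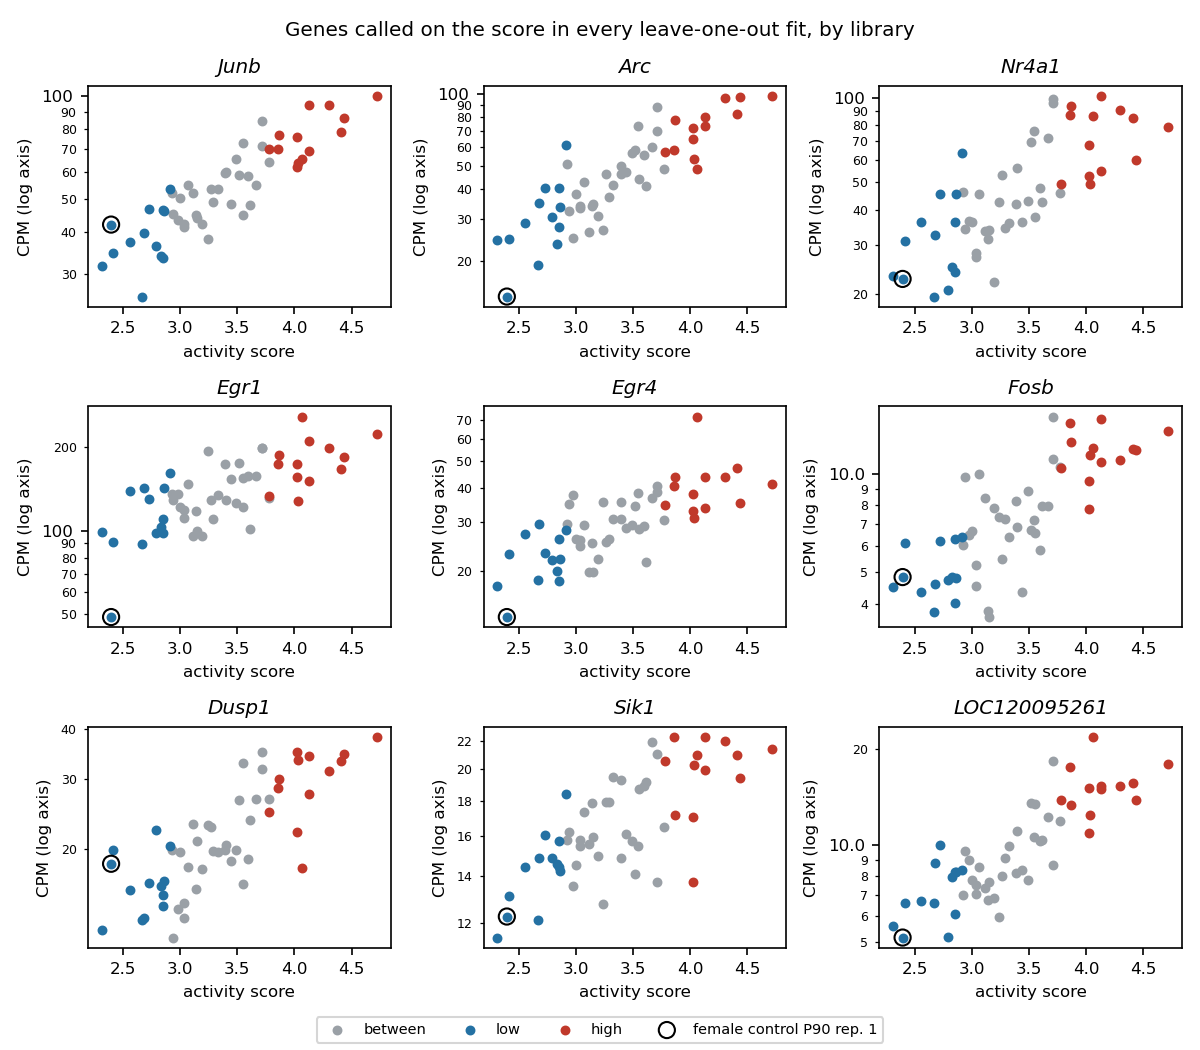
CPM (vertical, log axis) of Junb, Arc, Nr4a1, Egr1, Egr4, Fosb, Dusp1, Sik1 and LOC120095261 against the activity score (horizontal) in each of the 54 libraries, coloured by level, with control female P90 replicate 1 ringed. Junb, Egr4, Fosb and LOC120095261 show high libraries that all lie above the low ones, and the ringed library is the lowest of all for Arc, Egr1, Egr4 and LOC120095261.

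With all 54 libraries and the study group as covariate, the slope of each gene on the score was tested by edgeR's quasi-likelihood test with Benjamini-Hochberg adjustment over 26076 genes, leaving out Fos, Egr2 and Npas4. A slope is the log2 change in expression for 1 unit of score. At an adjusted p under 0.05, 84 genes (0.322%) rose and 338 (1.3%) fell with the score, with a median slope of 0.01 over all genes. The score and the genes were read from the same libraries, so that anything that moves all of them at once moves both. Of the 71 genes in the lists of rapid transcription factors, synaptic and secreted effectors and feedback inhibitors, 14 rose and 0 fell. Those lists were drawn up with earlier results of these data known.

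The slopes were led by activity genes. Junb rose by 0.54 ± 0.06 (SE, n = 54; edgeR adjusted p = 1.03e-07) and Arc by 0.86 ± 0.10 (edgeR adjusted p = 1.05e-07). Nr4a1 rose by 0.69 ± 0.10 (edgeR adjusted p = 1.44e-04), and Egr1, Egr4 and Fosb by 0.50 ± 0.09, 0.48 ± 0.08 and 0.45 ± 0.08 (edgeR adjusted p = 0.00143, 0.00171 and 0.00158). Among the inhibitors, Dusp1 rose by 0.45 ± 0.08 and Sik1 by 0.29 ± 0.05 (edgeR adjusted p = 0.00131 and 0.00109). These 8 genes and LOC120095261 were called in each of the 54 fits that left out 1 library. Junb, Arc, LOC120095261, Sik1 and Egr4 were also called under all 7 alternative settings, and Nr4a1, Dusp1, Egr1 and Fosb under 6 of 7, the exception being the fit without libraries outlying in markers of neighbouring tissue.

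Most of the other calls depended on single libraries. Without control female P90 replicate 1, 10 genes were called, all of them higher with the score: the 9 named above and Mir212. Junb then had a slope of 0.56, Arc 0.79, LOC120095261 0.69 and Nr4a1 0.67. The count was 14 without control female P90 replicate 6, 15 without control male P90 replicate 4, 27 without control male P90 replicate 1 and 74 without control female P90 replicate 4, all libraries of the high or the low set, and it reached 1365 without PAE-VEH male P42 replicate 6. None of the 338 genes that fell with the score was called without control female P90 replicate 1.

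**Figure D3:**
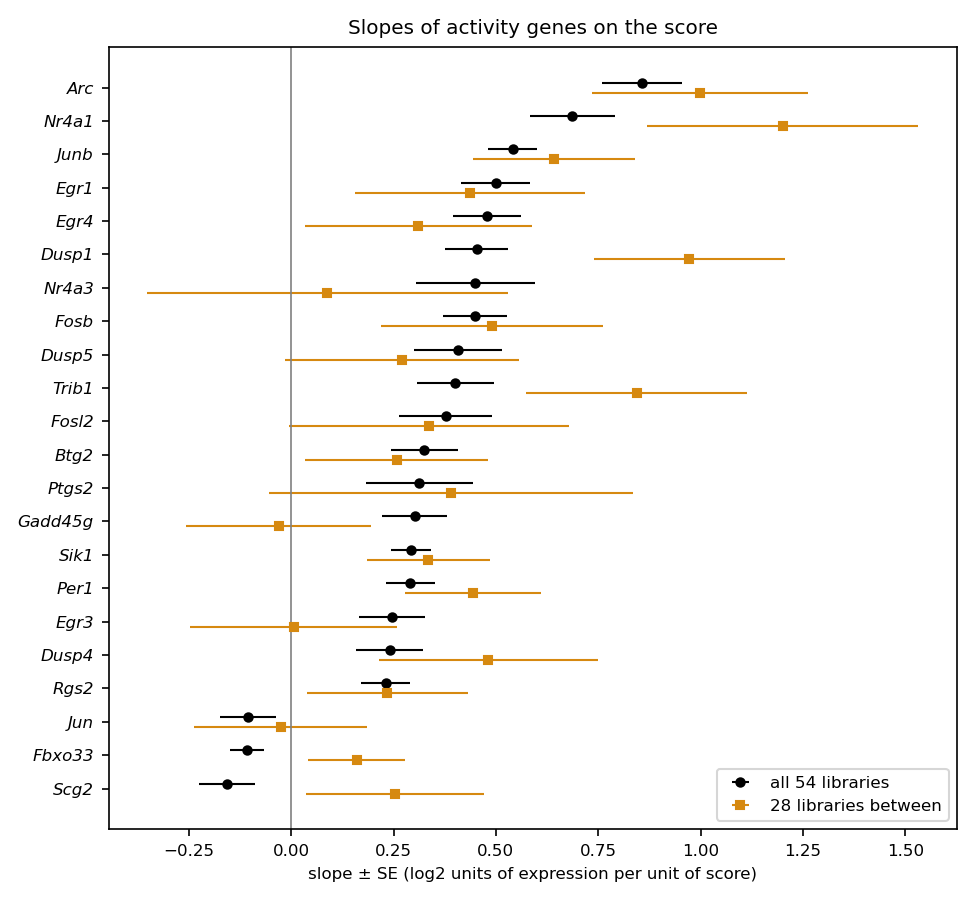
Slope on the activity score (horizontal axis, log2 units of expression per unit of score, with SE) of the activity genes called in the slope over 54 libraries or in the comparison of high with low libraries, in all 54 libraries (circles) and in the 28 between (squares). Arc, Nr4a1, Junb and Dusp1 have slopes of 0.64 to 1.20 in the libraries between, and Nr4a3, Gadd45g and Egr3 lie near 0 there.

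The 28 libraries between, which hold the middle scores of the same ranking, gave slopes of the same sign for all 9 genes. Their errors were wider over a narrower range of scores. The 9 genes were picked by fits that contain these 28 libraries, so this agreement is not independent of them. The slope was 0.64 ± 0.20 for Junb, 0.999 ± 0.26 for Arc, 1.20 ± 0.33 for Nr4a1 and 0.97 ± 0.23 for Dusp1 (SE, n = 28). It was 0.34 ± 0.15 for Sik1, 0.44 ± 0.28 for Egr1, 0.49 ± 0.27 for Fosb and 0.31 ± 0.28 for Egr4, whose SE is close to its slope. No gene passed in this fit: 0 of 28770 (0%) by edgeR's quasi-likelihood test, with 1575 at an unadjusted p under 0.05, and 8 by DESeq2. The smallest edgeR adjusted p of the 9 genes was 0.798, for LOC120095261. Of the feedback inhibitors 15 of 19 had a slope above 0, of the effectors 20 of 26 and of the rapid transcription factors 17 of 26, against 52.1% of all genes.

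The genes called with all 54 libraries divided by direction in the libraries between. Of the 84 that rose, 77 had a positive slope there, against 52.1% of all 28770 genes. Of the 338 that fell, 233 had a negative one. The all-library fit contains the 28 libraries, so these counts are not independent of it. The 13 high and 13 low libraries share no library with the 28. Of the genes higher in the high ones, 814 of 1231 had a positive slope between (66.1%, against 52.1% of all genes). Of those lower, 1001 of 2157 had a negative slope (46.4%), and their median slope was 0.01, the same as the 0.01 over all genes.

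The non-coding RNA beside the miR-132 and miR-212 genes was chosen for description after its values were seen. LOC120095261 stood at 5.15 to 10.02 CPM (median 6.73) in the low libraries, 5.96 to 18.4 CPM (median 8.64) in those between and 10.9 to 21.9 CPM (median 15.1) in the high ones, without overlap of high and low. Its slope was 0.70 ± 0.08 over 54 libraries (edgeR adjusted p = 1.05e-07) and 1.16 ± 0.24 in the 28 between. In control males at P42 it was at 5.58, 8.81 and 6.09 CPM in the low libraries and 15.1 CPM in the high one. Counts on the neighbouring hairpins were low. Mir212 stood at 0.289 to 0.917 CPM (median 0.518) and 0.539 to 2.05 CPM (median 1.12) (slope 0.62 ± 0.13 over 54 libraries, edgeR adjusted p = 0.0217), and Mir132 at 0.0578 to 0.534 CPM (median 0.173) and 0.134 to 0.758 CPM (median 0.344) (slope 0.66 ± 0.20, edgeR adjusted p = 0.0638). These are reads of a long-RNA library over the hairpins, not levels of the mature microRNAs printed above, and the library does not keep strand.

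Not every immediate early gene went with the score. Of the 26 rapid transcription factors outside the selection, 6 rose over the 54 libraries (Junb, Nr4a1, Egr1, Egr4, Fosb and Btg2) and 0 fell. Their median slope was 0.17, and of all genes 0.322% rose and 1.3% fell. Btg2, an antiproliferative cofactor, had a slope of 0.33 ± 0.08 and was called in 47 of the 54 fits with 1 library left out. Ier2 (0.15), Fosl1 (0.10), Atf3 (-0.16) and Maff (0.03) did not pass, and Jund (-0.09) and Crem (-0.10) had values below 0. Egr3, at 42.2 to 122.8 CPM (median 96.1) in the low and 79.8 to 157 CPM (median 124) in the high libraries, had a slope of 0.25 ± 0.08 (edgeR adjusted p = 0.0846) and 0.01 in the libraries between. Fosl2 had a slope of 0.38 ± 0.11 and Nr4a3 of 0.45 ± 0.14 (edgeR adjusted p = 0.0639 and 0.0801).

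Effectors of synaptic change were divided in the same way. Of 26 such genes Arc and Gadd45g rose over the 54 libraries and 0 fell, against 0.322% and 1.3% of all genes. Their median slope was 0.05. Gadd45g, a stress and demethylation factor, had a slope of 0.30 ± 0.08 (called in 43 of 54 fits with 1 library left out) and -0.03 in the libraries between. Homer1, a scaffold of group I metabotropic receptors, stood at 86.0 to 247 CPM (median 188) and 147 to 260.4 CPM (median 195) and had a slope of 0.19 ± 0.07 (edgeR adjusted p = 0.111). Bdnf, a neurotrophin that striatal neurons mostly receive from cortical axons, was at 0.321 to 3.10 CPM (median 1.22) and 0.344 to 5.70 CPM (median 1.37) (slope 0.07 ± 0.51). Nptx2 (0.07), Vgf (0.08), Nrn1 (-0.03), Pcsk1 (-0.02) and the secretogranin gene Scg2 (-0.16) did not pass either.

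Of 19 inhibitors that end a signal, 6 rose over the 54 libraries and 0 fell, against 0.322% and 1.3% of all genes. Those that rose were Dusp1, Dusp5, Trib1, Per1, Sik1 and Rgs2. Dusp5, a nuclear ERK phosphatase, had a slope of 0.41 ± 0.11, and Trib1, a pseudokinase, of 0.40 ± 0.09 (edgeR adjusted p = 0.0412 and 0.0292). Per1 is a clock gene with a CREB-responsive promoter, though its 300-base window held no CRE or core. It stood at 49.6 to 92.7 CPM (median 77.4) and 74.0 to 141 CPM (median 92.6) and had a slope of 0.29 ± 0.06 (edgeR adjusted p = 0.0176). Rgs2, a regulator of G protein signalling, had a slope of 0.23 ± 0.06. Of the 54 fits that each omitted 1 library, 52 called Per1, 50 Trib1, 41 Dusp5 and 39 Rgs2. Without control female P90 replicate 1, 2 of the 19 were called, Dusp1 and Sik1. The ERK inhibitors Dusp6 (0.15), Spry2 (0.08), Spry4 (0.07) and Spred1 (0.07) did not pass. The list had a median slope of 0.17 over 54 libraries and 0.19 in the 28 between.

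Per1 also belongs to the circadian clock, whose genes move with the time of day at which tissue is taken. Of 18 clock genes, Per1 and Per2 rose and 0 fell, against 0.322% and 1.3% of all genes. The slopes of 14 of the 18 were above 0, against 52.5% of all genes, with a median of 0.07. Without control female P90 replicate 1, 0 were called. Per2 had a slope of 0.27 ± 0.07 (edgeR adjusted p = 0.0457) and was called in 29 of 54 fits with 1 library left out. Genes of the other phases of the clock did not pass: Bmal1 (0.06), Dbp (0.00), Nr1d1 (-0.03), Nr1d2 (-0.01) and Cry1 (0.11). Among 15 genes induced by glucocorticoids Per1 and Dusp1 rose and 0 fell, against 0.322% and 1.3% of all genes. Both are also members of the inhibitor list, and Sgk1 (0.02), Klf9 (0.07) and Tsc22d3 (-0.11) did not pass. Of these 15, Dusp1 alone was called without control female P90 replicate 1. The part of collection time or stress hormone in the score was not tested.

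Of 31 genes of the signalling that leads to immediate early transcription (calcium channels, NMDA receptor subunits, calcium kinases, ERK, CREB, SRF and MEF2), 1 rose over the 54 libraries, Crebbp, the CREB-binding acetyltransferase, at 0.18 ± 0.05 (edgeR adjusted p = 0.0371; called in 44 of 54 fits with 1 library left out, not in that without control female P90 replicate 1). Creb1 (0.02) and Srf (0.11), the factors that bind the CRE and the CArG box, did not pass, nor did Grin1 (0.07) or Grin2b (0.12). The slopes of 28 of 31 were above 0, against 52.5% of all genes, with a median of 0.09. The 1 called stands beside 0.322% of all genes that rose.

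Set directly against each other with study group as covariate, the 13 high and 13 low libraries gave a far broader difference. By the same edgeR fit 1232 genes were higher (4.31%) and 2160 lower (7.56%) in the high libraries at an adjusted p under 0.05, of 28557 tested, with a median log2 difference of 0.05. These shares belong to the contrast that chose the libraries, and nothing is read from them. Because only 3 groups hold both levels, 11 libraries, 6 high and 5 low, carry the adjusted difference. It rested on 1 of them: without control female P90 replicate 1, edgeR called 0 genes, 2577 having an unadjusted p under 0.05, against 2280 to 5622 called when any other of the 26 was left out. With the split made on Fos and Egr2 alone, 0 genes were called as well (2314 at an unadjusted p under 0.05). The P42 libraries of the split alone gave 0 calls (1068 at an unadjusted p under 0.05). The P90 libraries alone, with 2 low libraries, 1 of them control female P90 replicate 1, gave 3938. The 3 groups that hold both levels, fitted alone, gave 0 (6229 at an unadjusted p under 0.05).

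**Figure D4:**
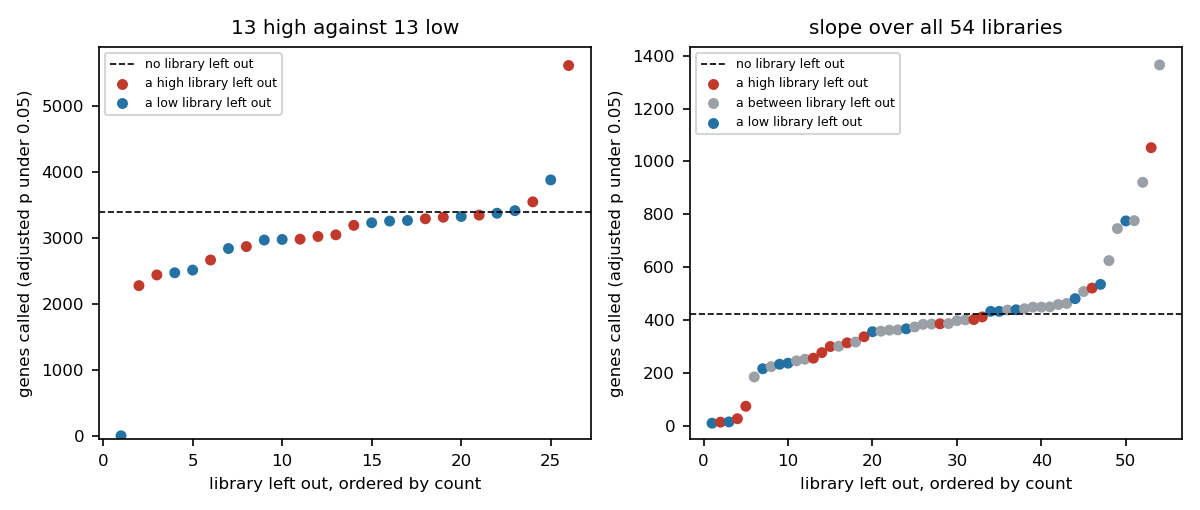
Number of genes called at an edgeR adjusted p under 0.05 (vertical axis) when each library is left out in turn, ordered by that count (horizontal axis), for the 13 high against 13 low libraries (left) and for the slope over all 54 (right), with the count for the full set as a dashed line. The left panel falls to 0 for 1 low library, and the right panel to between 10 and 74 for 5 libraries.

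Some activity genes had large differences in that comparison, but so did genes of other lists. The median was 0.38 for rapid transcription factors, 0.11 for effectors and 0.19 for inhibitors, against 1.17 for the ependymal list. The log2 difference was 1.65 ± 0.29 for Arc, 1.23 ± 0.24 for Nr4a1, 1.17 ± 0.18 for LOC120095261, 1.16 ± 0.24 for Dusp5, 1.01 ± 0.25 for Nr4a3 and 0.99 ± 0.21 for Egr1 (SE). Of the rapid transcription factors 8 were higher and 1 lower, Jun at -0.42 ± 0.10, of 26. Of the effectors Arc and Ptgs2 (0.81 ± 0.26) were higher and Scg2 (-0.45 ± 0.13) and Fbxo33 (-0.40 ± 0.08) lower, of 26. Of the inhibitors 5 were higher and 0 lower, of 19. Among all genes 4.31% were higher and 7.56% lower. Without control female P90 replicate 1, where no gene was called, Jun differed by -0.18, Ptgs2 by 0.36, Scg2 by -0.21 and Fbxo33 by -0.26. The difference without it was 1.33 for Arc, 1.21 for Nr4a1, 1.03 for LOC120095261 and 0.67 for Egr1. With no group term the values were 1.22, 1.15, 1.06 and 0.67 in that order, and all 4 genes were smaller in both than with every library and the group term.

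The genes with the smallest adjusted p in the comparison were mostly not activity genes. Higher in the high libraries were Mapkbp1 (0.61), a scaffold of JNK signalling, Has3 (0.72), a hyaluronan synthase, Fras1 (0.90), an extracellular matrix protein, Trerf1 (0.70), Kirrel1 (0.50), Mzf1 (0.79), Per1 (0.68), Tnrc18 (0.53), Spen (0.48), Slx4 (0.69), the postsynaptic scaffold Shank2 (0.43), Ccdc57 (1.08), Fosl2 (0.84), Arc and Zfp236 (0.51). The raw levels of Mapkbp1 and Fras1 overlapped. Mapkbp1 stood at 46.5 to 96.8 CPM (median 81.4) in the low and 65.8 to 106 CPM (median 85.8) in the high libraries, and 7 of 13 high libraries lay above the low median. Fras1 stood at 23.1 to 76.8 CPM (median 63.9) and 51.0 to 90.2 CPM (median 65.7), with a slope of 0.34 ± 0.06 over 54 libraries that was called in 53 of the 54 fits with 1 library left out. With control female P90 replicate 1 left out, the differences of the 15 genes named as higher were 0.34 to 1.33, and those of the 15 named next as lower were -1.54 to -0.29.

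Lower in the high libraries were Rpl30l2 (-0.88), Plaat3 (-0.80), Psmd10 (-0.55), a proteasome chaperone, Chchd2l3 (-0.70), Prxl2a (-0.52), the mitochondrial genes Atp5po (-0.49) and Ndufa8 (-0.63), Blvra (-0.96), Shh (-2.06), Rpl23al1 (-0.79), Cmpk1 (-0.44), Cfap36 (-0.44), Lactb2 (-0.58), Bloc1s5 (-0.63) and the ribosomal Rps15a (-0.60). Rpl30l2, Chchd2l3 and Rpl23al1 resemble other gene copies, so their counts may be shared with those copies. Rps15a stood at 98.7 to 191 CPM (median 119.9) in the low and 90.9 to 171 CPM (median 124) in the high libraries, and 8 of 13 high libraries lay above the low median although the adjusted difference was negative. Plaat3 had a slope of -0.30 ± 0.07 over 54 libraries and -0.30 in the 28 between.

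Markers of cell types moved with the split, and in bulk tissue fewer cells of a type and less RNA per cell cannot be told apart. All 14 shared spiny neuron markers had a positive difference, with a median of 0.45, and 0 were called. When control female P90 replicate 1 was left out, 11 of the 14 were positive and the median was 0.07. Drd1 stood at 109.7 to 467 CPM (median 309) in the low and 235 to 408 CPM (median 335) in the high libraries (difference 0.57 ± 0.24), Drd2 at 61.8 to 235 CPM (median 166) and 111 to 227 CPM (median 174) (0.51 ± 0.24). Penk (0.11), Pdyn (0.35) and Tac1 (0.51), peptides of these neurons, did not pass, and without that library they differed by 0.06, 0.31 and 0.10. The summed level of the 14 markers was 6076 to 11458 CPM in the high libraries (median 8823) and 3111 to 12965 CPM in the low ones (median 8719). The lowest of these, 3111 CPM, was control female P90 replicate 1, and without it Drd1 differed by 0.20 and Drd2 by 0.15. In the libraries between, the median slope of the 14 markers was -0.01.

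Myelin genes were lower in the high libraries. Of 15, 11 were called in that comparison and 11 fell over the 54 libraries, against 7.56% and 1.3% of all genes. The medians were -0.80 and -0.42, against -0.54 and -0.34 without control female P90 replicate 1. Mbp, a structural protein of compact myelin, stood at 4032 to 15066 CPM (median 6892) in the low and 2846 to 6752 CPM (median 4357) in the high libraries, where every high library lay below the low median, and its slope was -0.50 ± 0.12 (edgeR adjusted p = 0.0319). Cnp (-0.44), Ermn (-0.51) and Gjb1 (-0.47) fell with it. The summed level of the list was 7246 to 18749 CPM in the high and 11070.2 to 32006 CPM in the low libraries. In the 28 libraries between, 3 of the 15 slopes were above 0, the median was -0.03 and that of Mbp was 0.02. The P42 value of the split rests on 1 high library, control male replicate 7, the only high library of a P42 group that also holds low ones. In the P42 libraries Mbp differed by 0.06 ± 0.44 and in the P90 libraries by -1.64 ± 0.21. The P90 value rests on 2 low libraries, 1 of them control female replicate 1. Without control female P90 replicate 1 none of the 15 was called over the other 53, and the slope of Mbp was -0.45 (edgeR adjusted p = 0.384). The part of myelin content in the score was not tested.

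Other classes were also lower. In the comparison of high with low libraries, where 7.56% of all genes were lower, 25 of 25 tested ribosomal protein genes were lower (median -0.46), as were 11 of 13 tested microglia genes (-0.64; C1qb -0.64, Trem2 -0.73), 7 of 12 oligodendrocyte precursor genes (-0.54; Sox10 -0.70, Bcas1 -0.98), 6 of 14 astrocyte genes (-0.36; Agt -1.50, Slc6a11 -1.001) and 4 of 13 interneuron genes (-0.44; Pvalb -1.97, Calb2 -1.31). Differences above 0 were found in 2 of the 12 precursor, 2 of the 14 astrocyte and 2 of the 13 interneuron genes, and in 0 ribosomal or microglia genes. Control female P90 replicate 1 had the highest microglia score of the 54 (0.79) and the lowest spiny neuron and endothelial scores (-1.46 and -0.83). Without it 0 genes of these lists were called, and the medians were -0.33 for ribosomal, -0.34 for microglia, -0.30 for precursor, -0.28 for astrocyte and -0.26 for interneuron genes. Then 1 precursor, 0 astrocyte and 5 interneuron genes differed by more than 0. In the slope over 54 libraries, where 1.3% of all genes fell, 3 ribosomal, 2 microglia, 4 precursor, 2 astrocyte and 0 interneuron genes fell, and none of them was called without it. The median ribosomal score was 0.02 in the high and -0.09 in the low libraries, the opposite order to the adjusted differences.

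Markers of tissue next to the accumbens varied widely and were not separated by the split. Slc17a7, of cortical excitatory neurons, stood at 7.07 to 207 CPM (median 18.3) in the low and 4.43 to 366 CPM (median 32.6) in the high libraries. Ttr, of the choroid plexus, stood at 50.4 to 2103 CPM (median 117) and 6.89 to 1469.7 CPM (median 75.5), and Foxj1, of ciliated ependyma, at 13.6 to 78.1 CPM (median 36.7) and 12.9 to 184 CPM (median 46.7). Of 13 cortical, 13 choroid plexus and 14 ependymal genes, 0, 1 (Kcnj13, -1.56) and 0 were called. The median difference was 0.80, -1.11 and 1.17 in that order, and without control female P90 replicate 1 it was 0.31, -0.82 and 0.48. In the libraries between the median slopes were 0.18, -2.57 and -1.57. With these 3 list scores as covariates 0 genes were called between high and low libraries and 9 over the 54, namely the 8 activity genes and the non-coding RNA named above. Blood, heat shock, hypoxia, septal and neuropeptide genes had medians between -0.34 and 0.01 over the 54 libraries, and 1 gene of these lists was called there, Ndrg1 at -0.39.

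**Figure D5:**
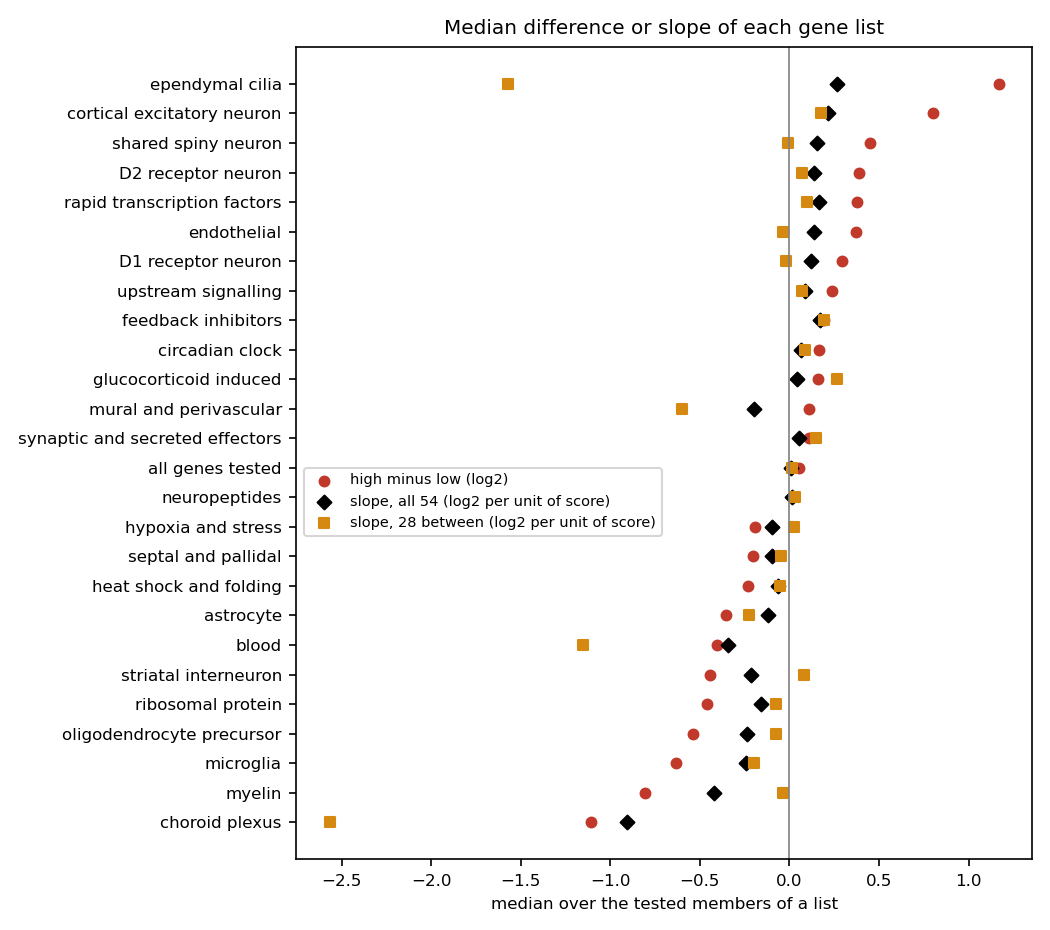
Median over the tested members of each gene list (rows) of the log2 difference between 13 high and 13 low libraries (circles), of the slope over all 54 libraries (diamonds) and of the slope in the 28 between (squares, both in log2 units per unit of score), beside the median of all genes tested. Feedback inhibitors have medians of 0.19, 0.17 and 0.19, whereas the ependymal list goes from 1.17 to -1.57 and the myelin list from -0.80 to -0.03.

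Whether the slopes differed between ages or sexes was tested by an interaction term over the 54 libraries. The edgeR test called 0 genes for age (1179 had an unadjusted p under 0.05) and 0 for sex (1237), against 1 and 2 by DESeq2. The Xist and Kdm5d levels of 4 libraries went against the labelled sex, and without them 0 genes were called for age (1169 at an unadjusted p under 0.05) and 0 for sex (1297). The sex difference in slope was then -0.06 ± 0.19 for Arc, -0.18 ± 0.11 for Junb and -0.33 ± 0.15 for Dusp1. The split without these libraries called 3447 genes, the slope over the other 50 libraries 589 and the slope between 0. For Arc the slope over all 54 at P90 minus that at P42 was 0.37 ± 0.20 and that of females minus males -0.01 ± 0.20. For Junb these were 0.05 ± 0.13 and -0.14 ± 0.12, and for Dusp1 0.18 ± 0.16 and -0.32 ± 0.15 (SE). In the P42 libraries of the split Junb differed by 0.82 ± 0.27 between high and low, and in the P90 libraries by 0.93 ± 0.19. Sik1 differed by -0.04 ± 0.22 and 0.58 ± 0.13. The P42 values rest on 1 high library, control male replicate 7, and the P90 values on 2 low ones, control male replicate 4 and control female replicate 1.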

How the data were processed

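RNA-seq of nucleus accumbens was deposited as a table of gene counts for 54 libraries. The authors trimmed reads with fastp and aligned them with HISAT2 2.0.5, per the submitters' processing notes. The genome build is not given in the sources used here. The counts were deposited unnormalised, and 54 FPKM columns beside them were not used. Of 46505 rows, 720 without a gene name, holding 0.271 to 0.412% of counts, were left out, which left 45785. Total RNA was primed with random hexamers without strand marking, per the labels' protocols. Depth was 59.1 to 103.8 M counts, and this sets the precision of low genes.

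The activity score used log2(CPM + 1) on total counts. Genes were filtered with filterByExpr by study group, scaled by TMM and fitted with edgeR 4.0.16 (limma 3.58.1, R 4.3.3) by glmQLFit and glmQLFTest with study group as covariate. P-values were adjusted by Benjamini-Hochberg over all genes tested, with 0.05 as threshold, leaving out Fos, Egr2 and Npas4. SE is the absolute log2 value divided by the square root of F. DESeq2 1.42.0 was an alternative. Score differences between groups were tested by exact permutation (scipy 1.17.1, Python 3.11.15). The fits were tested on simulated data. Named genes were members of the 3 activity lists, the 15 higher and the 15 lower called genes with the smallest adjusted p, a proper gene symbol and 1 CPM or more on average, up to 4 called members of each other list, and 12 defining markers. Other members named from the clock, glucocorticoid and upstream lists, LOC120095261, Mir132 and Mir212 were chosen after their values were seen. The members, and the 27 gene lists, were chosen with earlier results of these data known. Replicate numbers follow the order of deposition. Starts of 45780 genes equalled those of the RefSeq GRCr8 table, from which coordinates and sequences were taken.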

Additional observations from a re-analysis of the deposited data

Results flagged for a closer look

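Of 48 sets of values in groups of 4 to 9 libraries, 4 held a library far from the others. Chance alone flags about 1 set in 20. The sets are not independent, since the score chose the libraries and Arc and LOC120095261 followed it. The 4 are therefore not weighed against that rate. Control male P42 replicate 7 accounted for 3 of them. Its activity score was 4.02 against 2.31 to 3.15 in the other 8 libraries of its group. Its Arc level was 64.5 CPM against 24.5 to 38.2 CPM, and its LOC120095261 level was 15.1 CPM against 5.58 to 9.01 CPM. The remaining library was PAE-AAE male P90 replicate 3, whose shared spiny neuron score was -0.909 against -0.00847 to 0.394 in its group.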

How the results depend on the processing

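The count of 3392 genes between high and low libraries was 5715 with DESeq2, 217 with no group term, 1700 with the 10 highest against the 10 lowest, 1864 with 18 against 18 and 1724 with the split made without Egr2. It was 0 with the split made without Npas4, with cortical, choroid plexus and ependymal scores as covariates, and in the P42 libraries alone. It was 1440 without libraries outlying in neighbouring tissue markers and 422 with all 54 libraries and a continuous score. Other settings were chosen after seeing the data and gave 1542 (sex, age and exposure as additive terms) and 0 (only groups holding both levels). Leaving out each library in turn gave 0 to 5622. The cause of these changes was not tested. Signs turned for Fbxo33, from -0.40 to 0.0023 with no group term, for Jun, from -0.42 to 0.13 with the split made without Npas4, and for Rpl30l2, from -0.88 to 0.14 and 0.20 under those settings.

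The count of 422 genes over all 54 libraries was 1348 with DESeq2, 9 with the 3 tissue scores, 11 with a ribosomal protein score and 5 without outlying libraries, all chosen after seeing the data, and 10 to 1365 with 1 library left out. In the 28 libraries between, 0 genes by edgeR became 8 with DESeq2, and stayed 0 with any 1 library left out. DESeq2 gave 1 gene for the difference of slopes by age and 2 by sex, against 0 by edgeR. With each library of either group left out in turn, chosen in part after seeing the data, the score difference ranged in ethanol females from 0.26 to 0.60 at P90 and from 0.24 to 0.62 at P42, in ethanol males from -0.10 to 0.30 at P90 and from -0.066 to 0.15 at P42, turning in sign in both, and by age from 0.25 to 0.58 in control females and from 0.35 to 0.74 in control males. The smallest adjusted p among these exact permutation tests was 0.114. Without libraries whose sex markers go against their label, 0 genes differed in slope by age or sex. No paired analysis was possible because the labels carry no replicate numbers shared between groups. Depth limits low genes such as Mir132, at a median of 0.173 CPM in the low libraries.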
